A study of Mus musculus with 9 samples.

Results

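Of the 1117 olfactory receptor transcript clusters on a mouse whole-transcript array (Clariom S, 1 probe set per gene), 62 (5.55%) had a mean log2 signal above 5.98 over 9 arrays of mouse hippocampus, and they are described here. The members were chosen by that mean alone, from rows whose gene symbol is Olfr followed by a digit, so their levels are a description and carry no test. The threshold is the level below which the lowest 40% of all 22206 clusters lay, and 1055 receptor clusters remained at or under it. Of the 62 members, 60 carry 1 symbol, and the other two each carry several receptor symbols and are counted but not named.

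The hippocampi came from male ICR mice of 8 weeks that had inhaled a nebulised fluid, whole body, for 7 days and were assessed in a tail suspension test after 30 min of inhalation. The groups were a vehicle control exposed to 1% Tween 80 (a detergent that disperses oils in water), a group exposed to 1% linalyl acetate (LA, a fragrant monoterpene ester of lavender and bergamot oils) and a group exposed to 10% LA, with 3 arrays each. The mice carried no transgene or deletion by the labels, and nothing says whether each array holds 1 animal. The descriptions of 5 arrays and the series' design text speak of another compound and of a human cell line, so the groups were taken from the sample titles, and the cluster identifiers and symbols are those of the mouse array.

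Olfactory receptors are G protein-coupled receptors encoded by one of the largest gene families of the mouse, in arrays of near neighbours on many chromosomes. Each olfactory sensory neuron of the nose expresses essentially a single allele of a single receptor gene, chosen with the help of the factors Lhx2, Ebf and Ldb1 and stabilised by a feedback through Kdm1a and Atf5. An odorant bound to its receptor activates the G protein subunit Gnal, the adenylyl cyclase Adcy3 and a cyclic nucleotide-gated channel. Transcripts of some receptors have been described outside the nose, in kidney, sperm, muscle and brain among other tissues, usually at low levels.

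Promoter windows of the receptors on which the results turn are printed for comparison: the 3 of highest signal (Olfr898, Olfr1410 and Olfr1412), the receptors furthest above and furthest below vehicle among the named receptors at 1% LA (Olfr1508 and Olfr1440), and Olfr666, which was also higher at 1% LA and has 2 TATA-box matches. Each window runs 5′ to 3′ over 300 bases, 250 before and 50 after the start of the RefSeq gene model on GRCm38.p6. Capitals mark an ATG that falls exactly at the model start and any TATAAA match on either strand, which appears as TTTATA when it lies on the opposite strand.
Olfr898, chr9:38348835-38349134, plus strand: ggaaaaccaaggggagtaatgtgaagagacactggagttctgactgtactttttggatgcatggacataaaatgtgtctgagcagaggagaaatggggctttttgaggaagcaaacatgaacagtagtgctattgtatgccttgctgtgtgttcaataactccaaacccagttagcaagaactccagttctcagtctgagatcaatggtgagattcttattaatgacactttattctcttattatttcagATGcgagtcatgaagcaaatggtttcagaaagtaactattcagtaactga
Olfr1410, chr1:92607589-92607888, plus strand: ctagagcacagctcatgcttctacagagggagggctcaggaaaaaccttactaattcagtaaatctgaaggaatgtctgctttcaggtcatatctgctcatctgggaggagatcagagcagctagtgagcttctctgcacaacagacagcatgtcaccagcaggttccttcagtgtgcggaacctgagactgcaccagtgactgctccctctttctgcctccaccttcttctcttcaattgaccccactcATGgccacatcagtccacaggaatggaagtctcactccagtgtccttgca
Olfr1412, chr1:92588082-92588381, plus strand: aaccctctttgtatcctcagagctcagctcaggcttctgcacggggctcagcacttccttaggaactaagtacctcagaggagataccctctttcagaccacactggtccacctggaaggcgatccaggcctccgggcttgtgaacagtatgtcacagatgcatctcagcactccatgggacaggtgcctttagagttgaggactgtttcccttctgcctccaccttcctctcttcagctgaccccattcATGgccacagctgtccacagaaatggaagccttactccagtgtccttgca
Olfr1508, chr14:52467412-52467711, minus strand: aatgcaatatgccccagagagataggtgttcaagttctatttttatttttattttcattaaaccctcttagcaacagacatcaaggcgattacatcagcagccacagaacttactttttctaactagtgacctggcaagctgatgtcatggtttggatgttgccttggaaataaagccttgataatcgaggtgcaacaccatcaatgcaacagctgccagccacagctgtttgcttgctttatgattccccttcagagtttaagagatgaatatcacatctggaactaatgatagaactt
Olfr666, chr7:104893577-104893876, minus strand: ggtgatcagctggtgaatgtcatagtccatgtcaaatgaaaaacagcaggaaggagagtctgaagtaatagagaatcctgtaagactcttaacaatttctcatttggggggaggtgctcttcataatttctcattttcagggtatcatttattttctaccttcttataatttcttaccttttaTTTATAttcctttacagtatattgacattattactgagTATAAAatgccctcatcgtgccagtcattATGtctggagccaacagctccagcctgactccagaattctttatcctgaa
Olfr1440, chr19:12394015-12394314, plus strand: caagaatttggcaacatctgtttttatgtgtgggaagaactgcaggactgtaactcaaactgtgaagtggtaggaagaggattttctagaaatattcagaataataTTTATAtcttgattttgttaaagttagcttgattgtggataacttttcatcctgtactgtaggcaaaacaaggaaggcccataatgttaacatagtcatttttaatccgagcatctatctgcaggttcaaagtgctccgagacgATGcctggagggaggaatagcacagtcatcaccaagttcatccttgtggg

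A window was held for 50 members, 865 remaining receptors and 27025 genes of the whole table. In 38 of the 50 member windows (76.0%) the model began with the letters ATG, as in 72.8% of the remaining receptors' windows and in 6.75% of all windows, so most receptor models start at the coding sequence and the window is not a mapped start of transcription. The median G+C content was 36.5% in member windows, 35.0% in the remaining receptors' and 52.7% in all windows. TATAAA, searched on both strands, was in 25 member windows (50.0%), in 40.8% of the remaining receptors' and in 14.2% of all windows. TAATTA, a core of homeodomain sites that reads the same on both strands, was in 6 member windows (12.0%), in 19.0% of the remaining receptors' and in 5.31% of all windows. The palindromic core of the olfactory Ebf site, named O/E, was in 0 member windows, in 0.578% of the remaining receptors' and in 0.914% of all windows. The windows of Olfr1410 and Olfr1412 were identical at 65.5% of 333 aligned positions, against 52.1% of 349 for Olfr898 and Olfr1410.

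The members came from both receptor classes and from many chromosomes. By their annotation 5 of 60 were class I receptors (8.33%; Olfr666, Olfr692 and Olfr566 had the highest means), the class that resembles fish receptors and lies in a single cluster on chromosome 7, and 55 were class II. Among the 1016 remaining receptors whose class the annotation gives, 117 (11.5%) were class I. A pseudogene symbol was carried by 3 members, Olfr237-ps1, Olfr29-ps1 and Olfr175-ps1 (4.84% of the members, against 1.61% of the remaining receptors). Chromosome 2 held 14 named members, chromosome 7 held 13 and chromosome 9 held 10, which was 4.91%, 5.56% and 7.58% of the receptor clusters placed there.

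Every placed member had another receptor gene next to it on its chromosome (60 of 60, against 98.1% of the remaining receptors), but only 4 had another member there (6.67%, against 7.44%). The pairs were Olfr1507 with Olfr1508 on chromosome 14 and Olfr55 with Olfr239 on chromosome 17. Olfr1507 is the receptor MOR28, whose cluster and nearby H element are a textbook case of receptor choice. Olfr1410 and Olfr1412, which followed Olfr898 in signal, were separated on chromosome 1 by a single receptor gene, Olfr1411, which was not a member. The gene models of 3 members overlapped another annotated gene. No overlapped gene with a cluster of its own on the array was above the threshold, and genes without such a cluster were not assessed.

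The signals of most members lay close to the threshold. Their means ran from 5.99 to 8.06 with a median of 6.42, 36 of 62 were at 6.5 or less, 7 were above 7 and 11 exceeded the median cluster of the array (6.85). The remaining receptors had a median of 4.41. Brightness also depends on the probes of each set, so these orders are orders of log2 signal and not of RNA amount. Over the 9 arrays 29 members were above the threshold every time, and the members least often above it, Olfr1066 and Olfr772, were above it in 3 arrays.

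Just inside the threshold, Olfr554 had a mean of 5.987 (5.70 to 6.20 over the arrays), Olfr772 had 5.991 (5.71 to 6.49) and Olfr122 had 6.018 (5.67 to 6.19). Just outside it, Olfr1286 had a mean of 5.964 (5.61 to 6.53), Olfr1148 had 5.948 (5.55 to 6.30) and Olfr632 had 5.947 (5.74 to 6.30). The arrays of these 6 clusters overlapped across the threshold, and the SD of a member over the 9 arrays (median 0.30, range 0.09 to 0.49) exceeded the gap between the inner and outer clusters.

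The working name of the group, receptors with signal in hippocampus, was not borne out by the control probe sets. The series matrix, a second deposited table of log2 values for the same arrays, also holds 5222 sets named as negative controls and 1324 named as positive controls, with no statement of what the negative sets target. The negative sets had a median of 6.57 and 63.7% of them lay above 5.98, as did 91.0% of the positive sets, whose median was 10.42. In that table the members had a median of 6.41, and 87.1% of them lay above 5.98, as did 0.19% of the remaining receptors. In all, 24 members (38.7%) exceeded the median negative set, 3 members (4.84%) exceeded the 75th percentile of the negative sets (7.79) and 0 exceeded the 90th (9.21). Of all clusters, 53.1%, 41.5% and 29.0% exceeded these levels. Among the 1055 remaining receptors 0 exceeded the median negative set. Their median in that table was 4.4, under the 25th percentile of the negative sets (5.42). Most receptor clusters thus lay below most negative sets, and whether the negative sets mark a level without transcript was not tested.

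The 3 members above the 75th percentile of the negative sets were Olfr898, Olfr1410 and Olfr1412, which were brighter than 78.6%, 77.6% and 77.5% of the negative sets. Olfr1371 was brighter than 71.9%, Olfr1232 than 66.7% and Olfr55 than 64.5%. The members are therefore called receptor clusters above the threshold, with no statement that their transcripts are present.

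**Figure D1:**
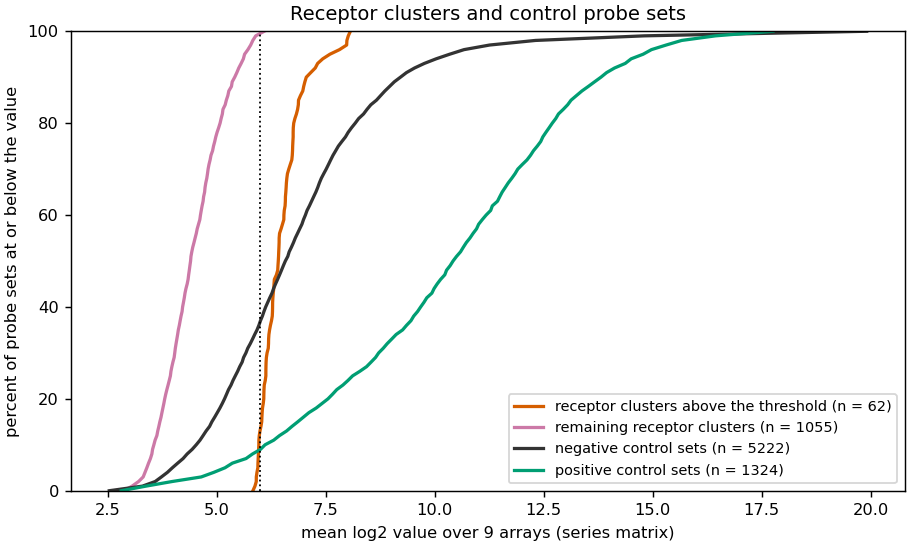
Percent of probe sets (vertical axis) whose mean log2 value over 9 arrays of the series matrix (horizontal axis) lay at or below a given level, for the 62 receptor clusters above the threshold, the 1055 remaining receptor clusters, 5222 negative control sets and 1324 positive control sets; the dotted line is the threshold of 5.98. The curve of the 62 members rises steeply between the threshold and about the 75th percentile of the negative control sets (7.79).

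Background sets that the array groups by the number of G and C bases in their probes varied over a range wider than that of the members. Sets with 8 to 18 such bases had mean log2 values between 2.86 and 4.72, while those with 3 such bases reached 7.73 and those with 19 to 25 lay between 6.65 and 7.00. The base composition of the receptors' own probes was not known here, and its part in their signals was not tested.

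Other gene families that encode chemosensory receptors or hair proteins also had some clusters above the threshold. The share was 6.6% of 212 Vmn1r and 14.3% of 126 Vmn2r clusters, which encode vomeronasal receptors, and 3 of 15 Taar clusters, which encode trace amine receptors. It was 2 of 35 for Tas2r bitter receptors and 1 of 3 for Tas1r receptors of sweet and umami taste. Of 57 Krtap clusters, which encode keratin-associated proteins of hair, 35.1% were above it, against 60.0% of all clusters of the array. The highest olfactory receptor (8.06) and the highest Vmn1r cluster (8.03) were alike in mean log2 signal, and the highest Vmn2r and Krtap clusters had 9.44 and 9.85.

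The machinery that serves receptors in the nose was only partly above the threshold. Of 14 olfactory sensory neuron genes 7 passed, led by Gnal (mean log2 signal 11.44) and Adcy3 (9.07), which many brain neurons also express. The other 5 that passed were the chloride channel Ano2 (8.46), Gng13 (8.36), Cngb1 (6.96), Kirrel2 (6.66) and Stoml3 (6.01). Of the 7 that did not pass, Omp, the olfactory marker protein, had 4.78, the channel subunits Cnga4 and Cnga2 had 4.30 and 3.78, and the receptor transport protein Rtp1 had 3.71. The 19 regulators of receptor choice on the array are measured by 20 clusters, of which 18 passed, among them Ldb1 (13.62), Lhx2 (11.35) and Kdm1a (9.79), all of which act in many other cells. Of 14 genes of supporting and gland cells of the olfactory mucosa 1 passed (Cbr2, 6.12).

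Of 11 genes of olfactory bulb neurons 3 passed, and the mitral cell genes Eomes, Tbx21 and Cdhr1 had 4.40, 5.26 and 3.93. Of 16 hippocampal neuron genes 14 passed, with a median level of 9.65 over the 16. In bulk tissue, fewer cells of a type and less RNA per cell cannot be told apart.

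Receptors that have been described outside the nose were mostly not members. Of 7 such receptors 6 were matched, and 1 was above the threshold: Olfr1393, described in mouse kidney, with a mean of 6.86. Olfr544, a receptor for azelaic acid described in liver and fat, had 5.69, and Olfr558, described in blood vessels, had 5.05. Olfr16, described in sperm and muscle, had 4.95, Olfr2, the octanal receptor I7, had 4.27 and Olfr151, the acetophenone receptor M71, had 2.91. Olfr1393 had 6.96, 6.74 and 7.25 in vehicle mice, 6.81, 6.32 and 7.03 in 1% LA mice and 6.76, 7.38 and 6.47 in 10% LA mice. The 3 groups of Olfr1393 overlapped, with log2 differences of -0.26 at 1% LA (SE 0.26) and -0.11 at 10% LA (SE 0.26) from vehicle.

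The member of highest signal, Olfr898 (MOR170-3), varied little: its log2 signals were 8.06, 8.03 and 7.98 in vehicle mice, 8.35, 7.68 and 8.31 in 1% LA mice and 7.98, 8.16 and 7.99 in 10% LA mice. The vehicle values lay within the range of both LA groups, and the differences from vehicle were 0.09 at 1% LA and 0.02 at 10% LA. Olfr1410 (MOR208-2) had 7.65, 7.62 and 7.81 in vehicle mice, 7.95, 7.71 and 7.87 in 1% LA mice and 7.76, 7.83 and 8.39 in 10% LA mice. Its high value stood in the third 10% LA array, and its groups overlapped. Olfr1412 (MOR208-4) had 7.66, 7.56 and 7.73 in vehicle mice, 7.62, 8.01 and 7.84 in 1% LA mice and 7.64, 8.15 and 7.59 in 10% LA mice. Here the second 1% LA and the second 10% LA arrays were highest, so the near neighbours Olfr1410 and Olfr1412 were not highest in the same array.

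Olfr1371 had 7.58, 7.16 and 7.32 in vehicle mice, 7.85, 7.54 and 7.87 in 1% LA mice and 7.91, 7.43 and 7.46 in 10% LA mice. Its difference at 1% LA was 0.40 (SE 0.20), short of non-overlap because 1 vehicle array exceeded 1 array at 1% LA. Olfr1232 ranged from 6.68 in the third vehicle array to 8.02 in the third 10% LA array, and Olfr55 from 6.80 in the second vehicle array to 7.95 in the third 10% LA array. The next 6 by mean were Olfr237-ps1 (7.03), Olfr666 (6.99), Olfr384 (6.95), Olfr147 (6.87), Olfr1393 (6.86) and Olfr29-ps1 (6.80), and all 12 were above the threshold in each of the 9 arrays.

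**Figure D2:**
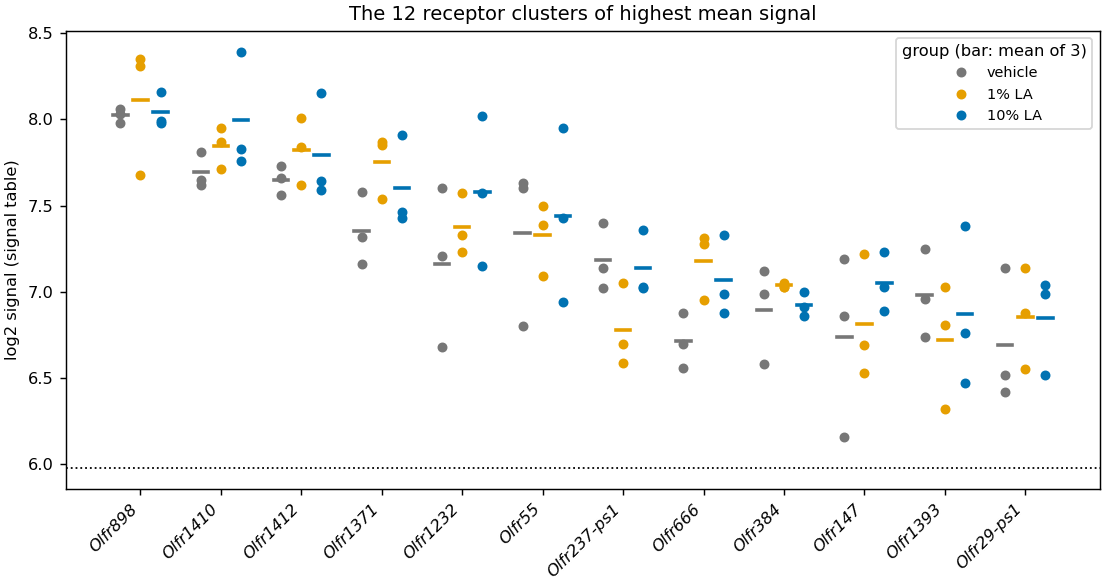
Log2 signal (vertical axis) of the 12 receptor clusters of highest mean, ordered by mean from left to right, in vehicle, 1% LA and 10% LA mice; points are single arrays, bars are means of 3 and the dotted line is the threshold of 5.98. Olfr898 has a mean of 8.06 over the 9 arrays, and in most of the 12 receptors the points of the 3 groups overlap.

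Members also differed in how much they spread. Olfr1507 had the widest spread of the named members (SD 0.49 over the 9 arrays), with 6.41, 6.45 and 5.76 in vehicle mice, 7.34, 6.60 and 6.22 in 1% LA mice and 6.28, 5.86 and 6.87 in 10% LA mice. No group of Olfr1507 stood apart, and the highest value was in the first 1% LA array. Olfr143 had an SD of 0.47, Olfr935 and Olfr1066 of 0.46 and Olfr1193 of 0.45. The narrowest, Olfr1336, had an SD of 0.09 (6.11 to 6.33). The median SD within groups was 0.305 for the members, 0.283 for the remaining receptors and 0.283 for the 4709 clusters in the members' range of levels. In the series matrix it was 0.289 for the members and 0.56 for the 2207 negative control sets in their range of levels.

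A single array stood apart between the 2 deposited tables. In the third vehicle array the members' values differed between the tables by a median of 0.367 (log2), and 16 of 62 (25.8%) differed by more than 0.5, as did 30.5% of the remaining receptors and 33.5% of all clusters. Over the other 8 arrays the median gap was 0.0789 and 1 of 496 values differed by more than 0.5. The gap in the third vehicle array, series matrix minus signal table, was 1.18 for Olfr692, -1.14 for Olfr1255, -0.87 for Olfr935, -0.86 for Olfr237-ps1 and -0.80 for Olfr1116. The sources used here do not say which table holds the right values for that array, so the results below come from the signal table with those of the series matrix beside them. No pair of arrays held identical values.

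Averaged over the members, the arrays of the 3 groups overlapped. The mean log2 signal over the 62 members was 6.44, 6.39 and 6.51 in the vehicle arrays, 6.52, 6.47 and 6.5 in the 1% LA arrays and 6.43, 6.54 and 6.69 in the 10% LA arrays. Group means were 6.45 ± 0.0603 in vehicle mice, 6.5 ± 0.0252 in 1% LA mice and 6.55 ± 0.131 in 10% LA mice (SD, n = 3 each). The number of members above the threshold was 49, 47 and 53 in vehicle arrays, 49, 51 and 53 in 1% LA arrays and 52, 55 and 56 in 10% LA arrays. The third 10% LA array was the highest for the members, and also for the remaining receptors, whose median was 4.51 there and 4.32 to 4.47 in the other 8 arrays.

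Choroid plexus markers, which belong to the epithelium of the brain ventricles next to the hippocampus, varied far more than the receptors between arrays. In the signal table the mean over 24 such genes was 6.44, 8.59 and 6.55 in vehicle arrays, 10.15, 9.27 and 9.23 in 1% LA arrays and 9.72, 7.28 and 8.51 in 10% LA arrays. The matrix value of the last vehicle array was 9.81 in place of 6.55, and the other 8 arrays were alike in both tables. Of the 21 choroid plexus genes that passed the filter, 21 were higher at 1% LA and 8 were higher at 10% LA at an unadjusted p under 0.05 in limma, where 6.33% and 6.79% of all clusters were, with 0 after adjustment. By the same measure 1 was higher at 1% LA and 0 at 10% LA in the series matrix, where 2.33% and 2.41% of all clusters were. In a fit that also took each array's choroid plexus level, the members' median difference from vehicle was 0.173 at 1% LA and 0.195 at 10% LA, where the fit without it gave 0.0617 and 0.0967. The same fit to the series matrix, added after the data were seen, gave 0.0857 and 0.14, where the series matrix without that term gave 0.0898 and 0.151. The negative control sets had medians of 6.76, 6.28 and 6.71 in the vehicle arrays, 6.63, 6.58 and 6.62 in the 1% LA arrays and 6.59, 6.58 and 6.62 in the 10% LA arrays.

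**Figure D3:**
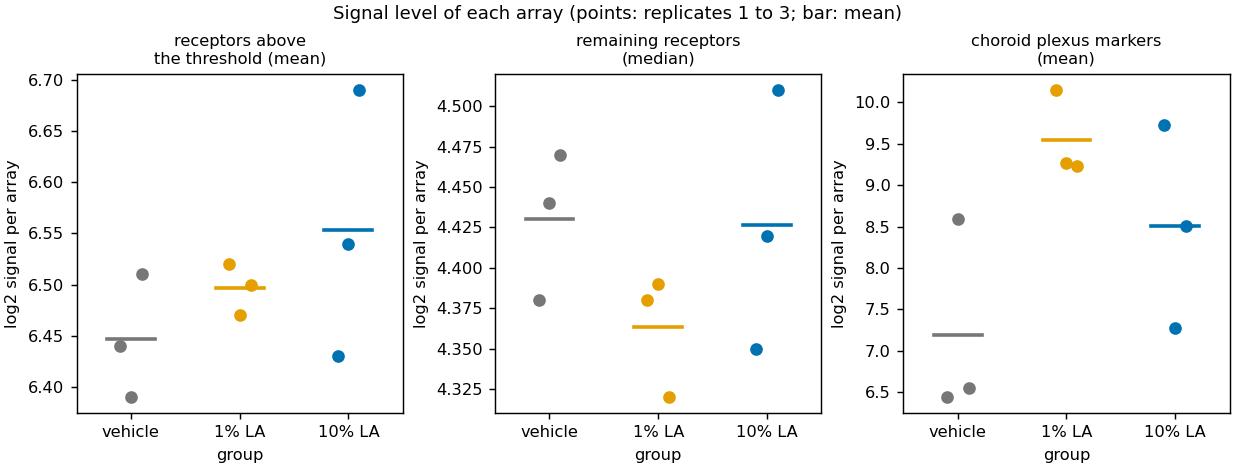
Log2 signal of each array (vertical axes, each with its own range) in vehicle, 1% LA and 10% LA mice: the mean of the 62 receptor clusters above the threshold, the median of the 1055 remaining receptor clusters and the mean of 24 choroid plexus markers; points are arrays and bars are group means. The members' means span 6.39 to 6.69 and the groups overlap, while the choroid plexus means span 6.44 to 10.15; all values are from the signal table.

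At 1% LA no member passed an adjusted p of 0.05 against vehicle in limma (Benjamini-Hochberg over 13323 clusters), and neither did any other cluster, the smallest adjusted p among members being 0.356. At an unadjusted p under 0.05, 5 members were higher and 1 was lower at 1% LA, where 6.33% and 5.6% of all clusters tested were. These are 8.06% and 1.61% of the 62 members. Without overlap of the arrays 4 members were higher and 2 were lower, where 7.01% and 7.43% of all clusters were. The members' median log2 difference was 0.0617 (range -0.487 to 0.693), beside -0.04 for the remaining receptors and -0.0167 for all clusters. Without the second vehicle array the members' median was 0.00333. The mean of the member rule takes in the LA arrays, so this contrast can in part follow from the rule.

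The receptors named per comparison are those with an unadjusted p under 0.05 whose groups did not overlap. Olfr1508 (MOR244-2), the neighbour of MOR28, was the furthest above vehicle of the 4 named at 1% LA. It had 7.03, 7.05 and 7.09 in 1% LA mice, against 6.70, 6.26 and 6.32 in vehicle mice. The 1% LA arrays lay close together and above every vehicle array. The log2 difference was 0.63 (SE 0.19, limma adjusted p = 0.356) and 0.64 in the series matrix. Its 10% LA arrays, at 6.60, 6.71 and 7.05, overlapped the vehicle arrays.

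Olfr666 (MOR34-1), a class I receptor, had 7.31, 6.95 and 7.28 in 1% LA mice, against 6.88, 6.56 and 6.70 in vehicle mice. The groups did not overlap, with a log2 difference of 0.47 (SE 0.19, limma adjusted p = 0.385), but in the series matrix the difference was 0.26 and the groups overlapped. Olfr1046 had 7.07, 6.95 and 6.88 in 1% LA mice, against 6.59, 6.35 and 6.80 in vehicle mice. Its difference was 0.39 (SE 0.17, limma adjusted p = 0.405), and 0.57 in the series matrix, without overlap in both tables. Its 10% LA arrays (6.69, 6.58 and 6.60) lay within the vehicle range of the signal table, where the difference from vehicle was 0.04. By the series matrix they were 6.74, 6.62 and 6.71, against 6.54, 6.29 and 6.27 in vehicle mice, which is a difference of 0.32 without overlap. The other member higher without overlap at 1% LA was Olfr228, whose unadjusted p in limma was not under 0.05. Olfr228 had 6.77, 6.90 and 7.00 in 1% LA mice, against 6.25, 6.59 and 6.75 in vehicle mice. In the series matrix it had 7.02, 7.07 and 7.19 against 6.56, 6.90 and 6.96, also without overlap.

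Olfr1440 (MOR215-1), the mouse receptor for the musk odorant muscone, was the member named on the low side at 1% LA. It had 6.34, 6.33 and 6.21 in 1% LA mice, against 6.70, 6.40 and 7.24 in vehicle mice. The log2 difference was -0.49 (SE 0.22, limma adjusted p = 0.406), and -0.26 without the third vehicle array, the array that differs between the tables. In the series matrix the difference was -0.39. The other member lower without overlap at 1% LA was Olfr1294, with a difference of -0.40 (SE 0.24) in the signal table and of -0.24 with overlapping groups in the series matrix.

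The other two members with an unadjusted p under 0.05 at 1% LA overlapped vehicle. Olfr920, a receptor described for acetophenone, had the largest difference of any member, 0.69 (SE 0.25), with 6.87, 5.96 and 6.48 in 1% LA mice, against 5.43, 6.06 and 5.74 in vehicle mice. Thus 1 vehicle array exceeded 1 array at 1% LA. Olfr295 differed by 0.52 (SE 0.24). The vehicle arrays of Olfr920 and Olfr295 averaged under 5.98, so both are members through their LA arrays. Their differences from vehicle thus rest on values that the member rule used.

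At 10% LA no member passed the adjusted threshold against vehicle either, and the smallest adjusted p among members in limma was 0.331. At an unadjusted p under 0.05, 2 members were higher and 0 were lower, where 6.79% and 7.12% of all clusters were. Without overlap 3 were higher and 0 were lower, beside 6.76% and 7.87% of all clusters. In direction alone, 44 of 62 members (71%) had a positive difference, beside 47.7% of all clusters tested and 50.2% of the remaining receptors, with a median difference of 0.0967 beside 0.00333 for the remaining receptors and -0.0133 for all clusters. Without the third 10% LA array the median was 0.05, with 38 of 62 positive. Without the second vehicle array 37 of 62 were positive. The mean of the member rule takes in the LA arrays. Receptors near the threshold could become members through high LA values, so the contrast with the remaining receptors can in part follow from the rule.

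Olfr143 had 5.99, 6.02 and 6.86 in 10% LA mice, against 5.76, 5.39 and 5.79 in vehicle mice. Its difference of 0.64 (SE 0.29, limma adjusted p = 0.354) leant on the third 10% LA array, and in the series matrix the difference was 0.52 with overlapping groups. Without that array it was the lowest of its values under other settings, 0.358. Olfr298 had 6.39, 6.38 and 6.71 in 10% LA mice, against 5.61, 6.21 and 6.08 in vehicle mice. Its difference was 0.53 (SE 0.22, limma adjusted p = 0.331), 0.59 in the series matrix and 0.348 without the first vehicle array. Olfr61 also did not overlap (5.99, 6.33 and 6.41 in 10% LA mice, against 5.93, 5.98 and 5.78 in vehicle mice), with a difference of 0.35 (SE 0.21). The matrix difference of Olfr61 was 0.15 and the groups overlapped. The vehicle arrays of Olfr143, Olfr298 and Olfr61 averaged under 5.98, so these receptors are members through their LA arrays. Their differences from vehicle thus rest on values that the member rule used.

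**Figure D4:**
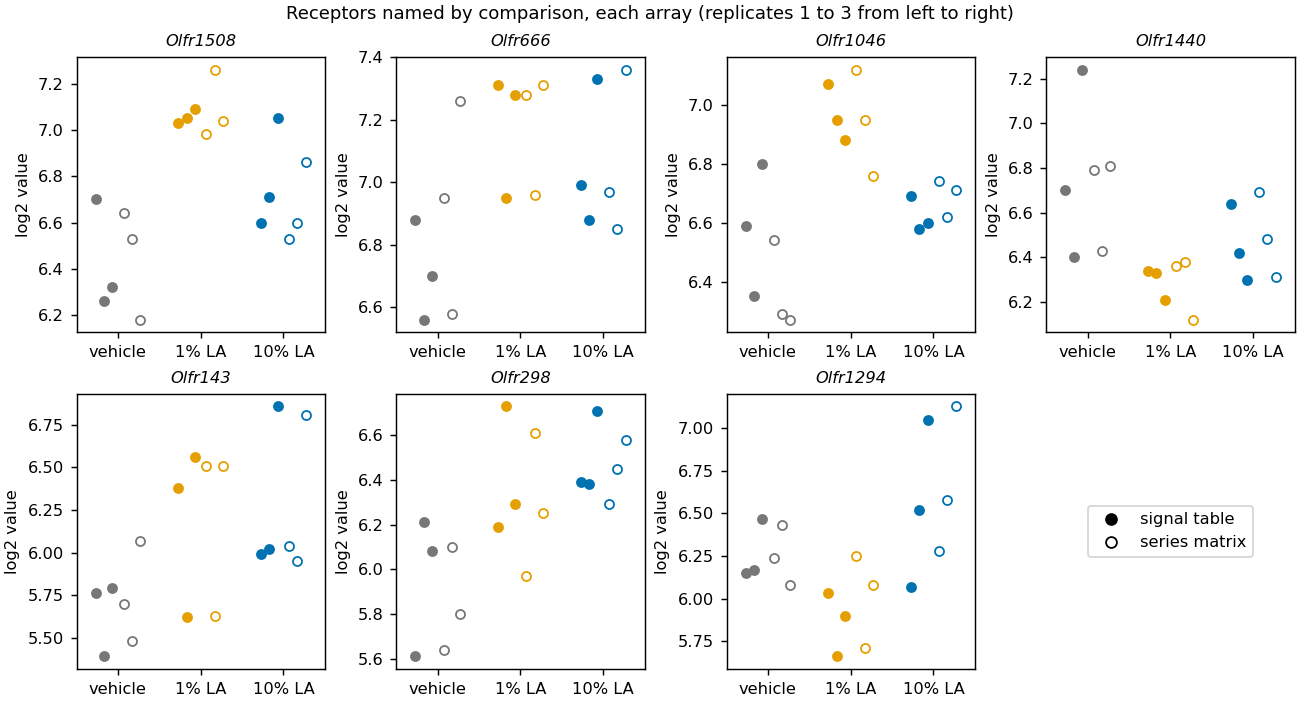
Log2 value (vertical axes, each with its own range) of each array for the 7 receptors named in the comparisons, in vehicle, 1% LA and 10% LA mice; filled points are the signal table and open points the series matrix, with replicates 1 to 3 from left to right. Olfr1508 at 1% LA lies above every vehicle array in both tables, whereas Olfr666 at 1% LA and Olfr143 at 10% LA do so in the signal table only.

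Between the doses, 3 members were higher at 10% LA than at 1% LA and 0 were lower at an unadjusted p under 0.05 in limma, where 0.968% and 1.07% of all clusters were, and 0 passed the adjusted threshold. Without overlap 2 were higher and 2 were lower, beside 2.73% and 3.51% of all clusters. Olfr1294 had 6.07, 6.52 and 7.05 in 10% LA mice, against 6.03, 5.66 and 5.90 in 1% LA mice. Its log2 difference was 0.68 (SE 0.24, limma adjusted p = 0.99986). In the series matrix the difference was 0.65, also without overlap, and without the third 10% LA array of the signal table it was 0.432. The vehicle arrays of Olfr1294, at 6.15, 6.17 and 6.47, lay within the range of the 10% LA arrays and above the 1% LA arrays. Olfr978 (0.62, SE 0.26) and Olfr914 (0.51, SE 0.23) overlapped. The members' median difference was 0.055 with 36 of 62 positive (58.1%), beside 46.9% of all clusters tested and 53.5% of the remaining receptors. Without the third 10% LA array the members' median was -0.0275 with 25 positive.

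Both comparisons with vehicle use the same 3 vehicle arrays, so the differences of the named receptors are given side by side with no test of their likeness. Olfr1508, Olfr666, Olfr1046 and Olfr1440 had log2 differences of 0.63, 0.47, 0.39 and -0.49 at 1% LA and of 0.36, 0.35, 0.04 and -0.33 at 10% LA. Olfr143 and Olfr298 had 0.54 and 0.44 at 1% LA and 0.64 and 0.53 at 10% LA.

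**Figure D5:**
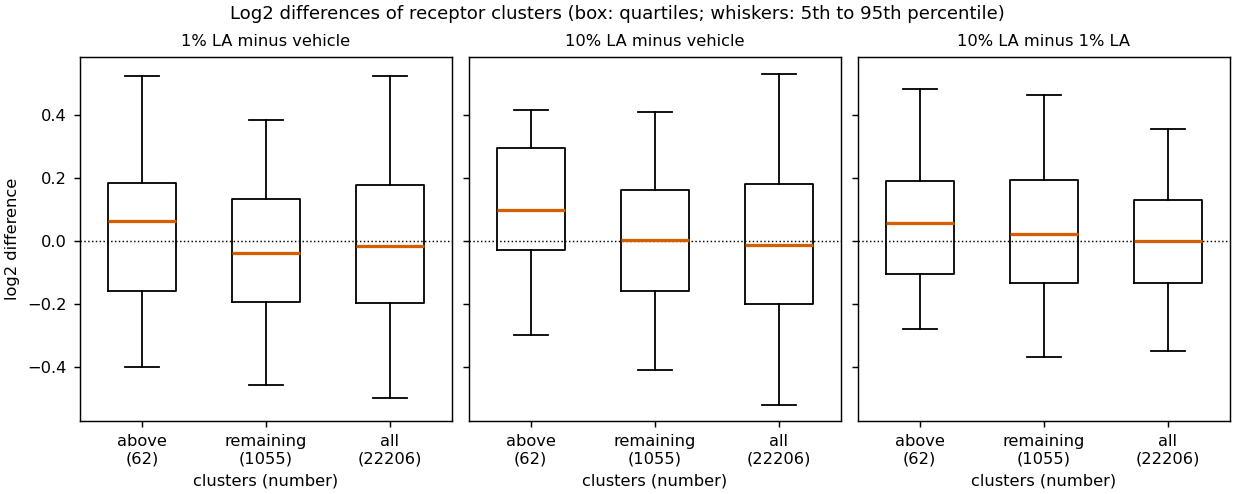
Log2 differences (vertical axis) of the 62 receptor clusters above the threshold, the 1055 remaining receptor clusters and all 22206 clusters, for 1% LA minus vehicle, 10% LA minus vehicle and 10% LA minus 1% LA; boxes are quartiles with the median, whiskers the 5th to 95th percentiles. The members' medians are 0.0617, 0.0967 and 0.055, and their boxes overlap those of all clusters.

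In the series matrix, without overlap, 4 were higher and 1 was lower at 1% LA (4.49% and 4.96% of all clusters), 4 were higher and 0 lower at 10% LA (4.68% and 5.71%), and 1 was higher and 3 lower at 10% LA against 1% LA (2.95% and 3.81%). The members' median differences there were 0.0898, 0.151 and 0.0548. In the authors' deposited tables of comparisons, 6 of 62 members had p under 0.05 at 1% LA, 5 of them higher. At 10% LA 2 of 62 did, both higher. Of all 22206 clusters, 2110 did at 1% LA (1059 higher) and 2379 at 10% LA (1145 higher). The smallest false discovery rates of members in the authors' deposited tables were 0.4555 and 0.4296. No member met the criteria of the authors' deposited tables, p under 0.05 and a fold above 2. Of all 22206 clusters 320 met them at 1% LA and 343 at 10% LA. The members' folds lay between -1.46 and 1.7 at 1% LA and between -1.37 and 1.98 at 10% LA. The fold of 1.98 was that of Olfr1066, from deposited averages of 6.6 at 10% LA and 5.61 in vehicle. Its arrays overlapped, with 5.74, 6.64 and 6.56 in 10% LA mice, against 5.58, 6.68 and 5.63 in vehicle mice. The deposited averages are thus not the means of the arrays used above. By those means the largest log2 difference of a member at 10% LA was 0.643.

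The remaining receptors, tested without the filter on low signal, had a lower share of such calls than all clusters against vehicle. At an unadjusted p under 0.05 in limma 22 of 1055 (2.09%) were higher and 45 (4.27%) lower at 1% LA, beside 4.78% and 4.74% of all clusters. At 10% LA 23 (2.18%) were higher and 27 (2.56%) lower, beside 5.14% and 5.54%. At 10% LA against 1% LA 30 (2.84%) were higher and 18 (1.71%) lower, beside 1.46% and 1.29%.

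Of 28 genes of the olfactory signalling pathway on the array, 22 passed the filter. At an unadjusted p under 0.05 in limma 3 were higher and 1 was lower at 1% LA, where 6.33% and 5.6% of all clusters were, and 4 were higher and 2 lower at 10% LA, where 6.79% and 7.12% were. After adjustment 0 passed at either dose. In the series matrix 0 were higher or lower at 1% LA at an unadjusted p under 0.05, and 1 was higher and 0 lower at 10% LA. Of all clusters 2.33% were higher and 2.5% lower there at 1% LA, and 2.41% and 3.3% at 10% LA. Cngb1, a subunit of the cyclic nucleotide-gated channel, had 7.26, 6.93 and 7.10 in 1% LA mice and 7.11, 7.44 and 7.55 in 10% LA mice, against 6.58, 6.33 and 6.32 in vehicle mice. Both LA groups lay above every vehicle array of Cngb1, with log2 differences of 0.69 and 0.96 (SE 0.18 for both, limma adjusted p = 0.356 and 0.312). The matrix differences of Cngb1 were 0.32 and 0.61 and the groups overlapped. Gng13, a G protein gamma subunit of sensory neurons, differed by -0.48 at 10% LA (SE 0.18, limma adjusted p = 0.319), and by -0.18 in the series matrix. Gnal differed by 0.06 at 1% LA and by -0.07 at 10% LA (SE 0.19 for both), and Adcy3 by -0.08 and -0.06 (SE 0.23 for both). Of the 18 clusters of receptor choice regulators that passed the filter, 1 was higher and 1 lower at 1% LA (beside 6.33% and 5.6% of all clusters), and 1 was higher and 3 lower at 10% LA (beside 6.79% and 7.12%), at an unadjusted p under 0.05.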

How the data were processed

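Hippocampal total RNA was hybridised to Clariom S arrays, and log2 signals per transcript cluster were made by signal space transformation robust multi-chip analysis in the Transcriptome Analysis Console, per the submitters' design text and processing notes. The deposited signal table (log2) gave the main values, and the series matrix, whose log2 values the authors deposited for the same arrays, an alternative; the third vehicle column differs between them. The authors' deposited comparison tables hold a signed fold score (below 1 given as minus the inverse), p-values and false discovery rates, per the file headers. No detection call was used, and the number of arrays limits the precision.

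From the log2 signals, a mean per group was fitted to all 9 arrays with limma 3.58.1 (R 4.3.3), with Benjamini-Hochberg adjustment over the 13323 clusters above the 40th percentile of the cluster means, at a threshold of 0.05. All 62 members pass that filter by their rule. The fit was tested on simulated data. Descriptions used Python 3.11.15 and pandas 2.3.3. Replicates are separate samples by the labels, which do not say that they are separate animals, so p-values measure the spread between these samples. Same-numbered samples of different groups did not deviate together (correlations of -0.169 to 0.168), and the numbers were not used as pairs.

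The members and gene lists were chosen with earlier results of these data known, so no p is given for a list. Genes named are the 12 members of highest mean. Per comparison and direction, up to 4 are named with an unadjusted p under 0.05 and no overlap between groups. Also named are those at the edge of the threshold, the 5 of widest spread and the 5 of largest gap between the tables. Receptors described outside the nose and up to 4 per list complete them. The olfactory sensory neuron list departs from this, with the 7 that passed and 4 that did not named. Olfr920, Olfr295, Olfr228, Olfr61, Olfr914, Olfr978 and Olfr1336 were named after their values were seen. Receptor annotation and promoter windows come from RefSeq (GRCm38.p6). Alternatives were another filter, the series matrix, an intensity trend, array weights, 2-group fits, the choroid plexus level, the replicate block, other thresholds for members and leaving out each array.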

Additional observations from a re-analysis of the deposited data

How the results depend on the processing

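No member passed the adjusted threshold in limma under any of the alternatives run, in any comparison. The counts at an unadjusted p under 0.05 changed more between settings, which also differ in how many members and clusters they test or call. For 1% LA against vehicle, 6 members became 1 with a filter at the median cluster, 2 with the series matrix, 3 with only the 2 groups in the fit and 2 once the choroid plexus level was added to the fit, and 3 to 6 when single arrays were left out. For 10% LA against vehicle, 2 became 0 with the median filter, 1 with an intensity trend and 6 with array quality weights, and 0 to 5 when single arrays were left out (5 without the first 10% LA array, 0 without the third). For 10% LA against 1% LA, 3 became 0 with the median filter and with the covariate, and 1 to 3 when single arrays were left out. The median filter left 11 members, of which 8, 9 and 6 had positive differences at 1% LA, at 10% LA and between the doses. With single arrays left out, the counts of positive differences were 31 to 36, 37 to 46 and 25 to 40, and the median differences 0.00333 to 0.0875, 0.05 to 0.168 and -0.0275 to 0.143. With the covariate the medians against vehicle were 0.173 and 0.195, and 0.0857 and 0.14 in the series matrix, an alternative chosen after seeing the data. With the replicate number as a block, 5, 3 and 3 members had an unadjusted p under 0.05, where the fit without it gave 6, 2 and 3, and 0 passed the adjusted threshold in both. The number of members was 148 with a mean above 5.5, 26 above 6.5 and 11 above the median cluster, and 60 to 64 when single arrays were left out. By the series matrix, 87.1% of the 62 members and 0.19% of the remaining receptors had a mean above 5.98. Over their alternatives the named receptors, chosen for groups that do not overlap, which fixes the sign when an array is left out, had these log2 differences: Olfr1508 ranged over 0.507 to 0.823, Olfr666 over 0.179 to 0.582, Olfr1046 over 0.272 to 0.601, Olfr1440 over -0.677 to -0.257, Olfr143 over 0.358 to 0.793, Olfr298 over 0.348 to 0.648 and Olfr1294 over 0.432 to 0.922. The causes of these shifts were not tested. Signals near those of the negative control sets limit what these values can show of the receptors' transcripts.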
